A study of Mus musculus with 32 samples.

Results

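The 6 myeloid C-type lectin genes Clec4e, Clec4d, Clec4n, Clec7a, Clec5a and Clec4a2 of the mouse were followed across 3 array experiments on tumour-associated macrophages. These 6 genes, of 17097 genes on the HT_MG-430_PM chip and 22180 on the Mouse Gene 2.0 ST chip, were chosen by name as the Mincle and dectin group of pattern recognition receptors. The rule that lists them uses no measured value, but it was written with earlier results of these data known. Each was read from the probe set with a single gene symbol that had the highest mean on its chip. All 6 were present on both chips, and all 6 passed the filter on low values in all 3 experiments.

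These lectins are surface receptors of macrophages, monocytes and neutrophils that read sugars and lipids of microbes and of damaged cells. Clec4e (Mincle), Clec4d (MCL) and Clec4n (dectin-2) signal through the adaptor Fcer1g, and Clec5a (MDL-1) signals through Tyrobp. Clec7a (dectin-1), the receptor for fungal beta-glucan, carries its own activating motif. These routes meet at the kinase Syk, which acts through Card9, Bcl10 and Malt1 on NF-kB. Clec4a2 (DCIR) differs in carrying an inhibitory motif that recruits phosphatases. Mincle is known as a gene that macrophages switch on after Toll-like receptor stimulation, by way of Myd88, and it forms a surface complex with MCL.

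The first experiment set CD11b+ cells, enriched on magnetic beads, from spontaneous peritoneal neuroblastomas of Th-MYCN transgenic mice (3 arrays) against those from EG7 tumours transplanted into WT mice (3 arrays). EG7 is a mouse thymic lymphoma line. The second compared CD11b+ cells of EG7 tumours grown in WT hosts and in Myd88-/- hosts (5 arrays each), in which the adaptor of Toll-like and IL-1 family receptors is missing from host cells but not from the transplanted tumour cells. The third used flow-sorted cells of EG7 tumours. Population A was CD11b+, Ly6G- and Ly6C+ but MHCII-, while population C was CD11b+ and MHCII+ but Ly6C-. Hosts were WT, TNFR1-/- (lacking TNF receptor 1, encoded by Tnfrsf1a), Myd88flox/flox with Tie2-Cre, or carried both changes (double knockout), with 2 arrays for each of the 8 combinations. Tie2-Cre is active in endothelial as well as blood-forming cells. The labels give no strain, age or Cre-only control and do not name the animal behind an array, so the p-values reflect the spread between arrays alone, which may be technical. The A and C arrays of a genotype may come from the same animals, and the fits treat all arrays as independent. Glioma samples named in the study design were not analysed here.

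Levels are the deposited log2 signals, on which 1 unit is a doubling. A difference is given as a log2 difference ± its standard error (SE) from limma, two-sided, with a p-value adjusted by Benjamini-Hochberg over all genes tested, and a gene was called when this adjusted p was under 0.05. Probe sets differ in brightness, so levels are compared between groups and not between genes. Levels are not compared between experiments either, since the labels do not say which arrays were normalized together. In these cell mixtures, fewer cells of a type and less RNA per cell cannot be told apart.

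The targeted genes were read first. Myd88 was lower in Myd88-/- hosts by a log2 difference of -0.75 ± 0.10 (adjusted p = 0.00175) and lower with Tie2-Cre deletion by -1.79 ± 0.19 in A and -1.75 ± 0.19 in C (adjusted p = 0.000562 and 0.0036). These pooled values hide a weaker check in double knockout C. Myd88 read 8.76 and 7.97 there, against 7.49 and 7.53 in Tie2-Cre Myd88 C and 9.78 and 9.22 in WT C. Its difference from WT was -1.135 ± 0.27 in double knockout C, not called in limma (adjusted p = 0.129), and -1.785 ± 0.27 in A (adjusted p = 0.0101). Tnfrsf1a differed by -0.44 ± 0.12 between the 8 TNFR1-deficient and the 8 TNFR1-intact sorted arrays (adjusted p = 0.0856), with overlapping values. In A it read 7.69 and 8.20 in double knockout arrays and 7.95 and 8 in Tie2-Cre Myd88 arrays. The sources used here do not say which part of Tnfrsf1a the probe set reads relative to the deletion. For the sorting antigen Ly6C itself, Ly6c2 was higher in A than in C by 3.21 ± 0.18 (adjusted p = 5.95e-08). The 8 tested monocyte markers, Ly6c2 among them, were mixed, with 3 higher and 2 lower in A. Of the 12 tested markers of mature macrophages, 10 were lower in A and 1 was higher. Of 8 T lymphocyte and EG7 markers, 4 were higher in A and 0 lower. Although A was sorted as Ly6G-, 9 of 12 neutrophil markers were higher in A, led by Retnlg at 5.65 ± 0.17 (adjusted p = 2.38e-10). Within groups, pairs of arrays correlated across genes at r = 0.925 or above, and the lowest was the pair of WT A arrays.

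All 6 lectin genes lie on mouse chromosome 6, as does Tnfrsf1a, and 5 of them, all but Clec5a, lie within 10 Mb of it. Myd88 lies on another chromosome. RefSeq start regions of 300 bases on GRCm38.p6 (250 before and 50 after the start) were given for 5 of the 6 genes, all but Clec4n. They are printed for reference, and a link between these letters and the levels below was not tested. Capitals mark the 6-letter core GAGGAA of the myeloid factor PU.1 and the C/EBP motif TTGCNNAA, each searched on both strands.
Clec4e, chr6:123289822-123290121, minus strand: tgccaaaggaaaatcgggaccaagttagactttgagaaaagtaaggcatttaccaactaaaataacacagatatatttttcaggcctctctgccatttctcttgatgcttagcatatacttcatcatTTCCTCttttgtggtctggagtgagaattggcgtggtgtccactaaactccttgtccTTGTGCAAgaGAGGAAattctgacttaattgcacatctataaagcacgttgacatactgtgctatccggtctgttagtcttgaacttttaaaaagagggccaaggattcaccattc
Clec4d, chr6:123261857-123262156, plus strand: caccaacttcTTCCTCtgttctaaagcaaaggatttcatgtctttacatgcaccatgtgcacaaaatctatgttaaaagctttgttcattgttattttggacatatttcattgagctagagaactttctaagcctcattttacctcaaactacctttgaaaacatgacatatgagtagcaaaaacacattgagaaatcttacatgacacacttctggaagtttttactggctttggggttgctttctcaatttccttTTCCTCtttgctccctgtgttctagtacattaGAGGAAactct
Clec7a, chr6:129472730-129473029, minus strand: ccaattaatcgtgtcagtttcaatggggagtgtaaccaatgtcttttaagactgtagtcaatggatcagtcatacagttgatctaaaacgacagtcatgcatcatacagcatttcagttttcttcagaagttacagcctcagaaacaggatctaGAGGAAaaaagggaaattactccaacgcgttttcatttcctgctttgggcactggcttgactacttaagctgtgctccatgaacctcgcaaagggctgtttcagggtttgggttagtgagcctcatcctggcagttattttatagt
Clec5a, chr6:40585756-40586055, minus strand: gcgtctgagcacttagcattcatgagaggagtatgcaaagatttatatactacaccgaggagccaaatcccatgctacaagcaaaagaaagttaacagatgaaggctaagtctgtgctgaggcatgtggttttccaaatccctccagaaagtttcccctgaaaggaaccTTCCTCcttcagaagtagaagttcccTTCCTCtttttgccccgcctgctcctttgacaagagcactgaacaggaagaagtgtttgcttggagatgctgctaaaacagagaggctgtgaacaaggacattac
Clec4a2, chr6:123122440-123122739, plus strand: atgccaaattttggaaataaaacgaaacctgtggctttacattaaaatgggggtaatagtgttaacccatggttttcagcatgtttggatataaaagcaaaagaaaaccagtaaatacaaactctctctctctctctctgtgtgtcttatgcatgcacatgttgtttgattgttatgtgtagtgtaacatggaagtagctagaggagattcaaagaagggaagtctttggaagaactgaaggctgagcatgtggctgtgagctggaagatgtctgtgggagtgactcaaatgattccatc

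The PU.1 core was found in 4 of these 5 regions, 2 times in Clec4e, 3 times in Clec4d, 1 time in Clec7a and 2 times in Clec5a, against 28.1% of all 32544 regions of this length. It was not found in the window of Clec4a2, the inhibitory receptor. The C/EBP motif was found only in Clec4e among the 5 genes (10.8% of all regions), where it starts at base -66 and a PU.1 core at base -56, counted from the transcription start. Among the other motifs searched, AP-1 (TGANTCA, 7.79% of all regions) matched Clec4a2, the IRF element (3.45%) matched Clec4d, the HIF core (ACGTG, 19.7%) matched Clec4e, and NF-kB (8.49%) matched none of the 5. A match is a string of letters and was not tested as a binding site.

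**Figure D1:**
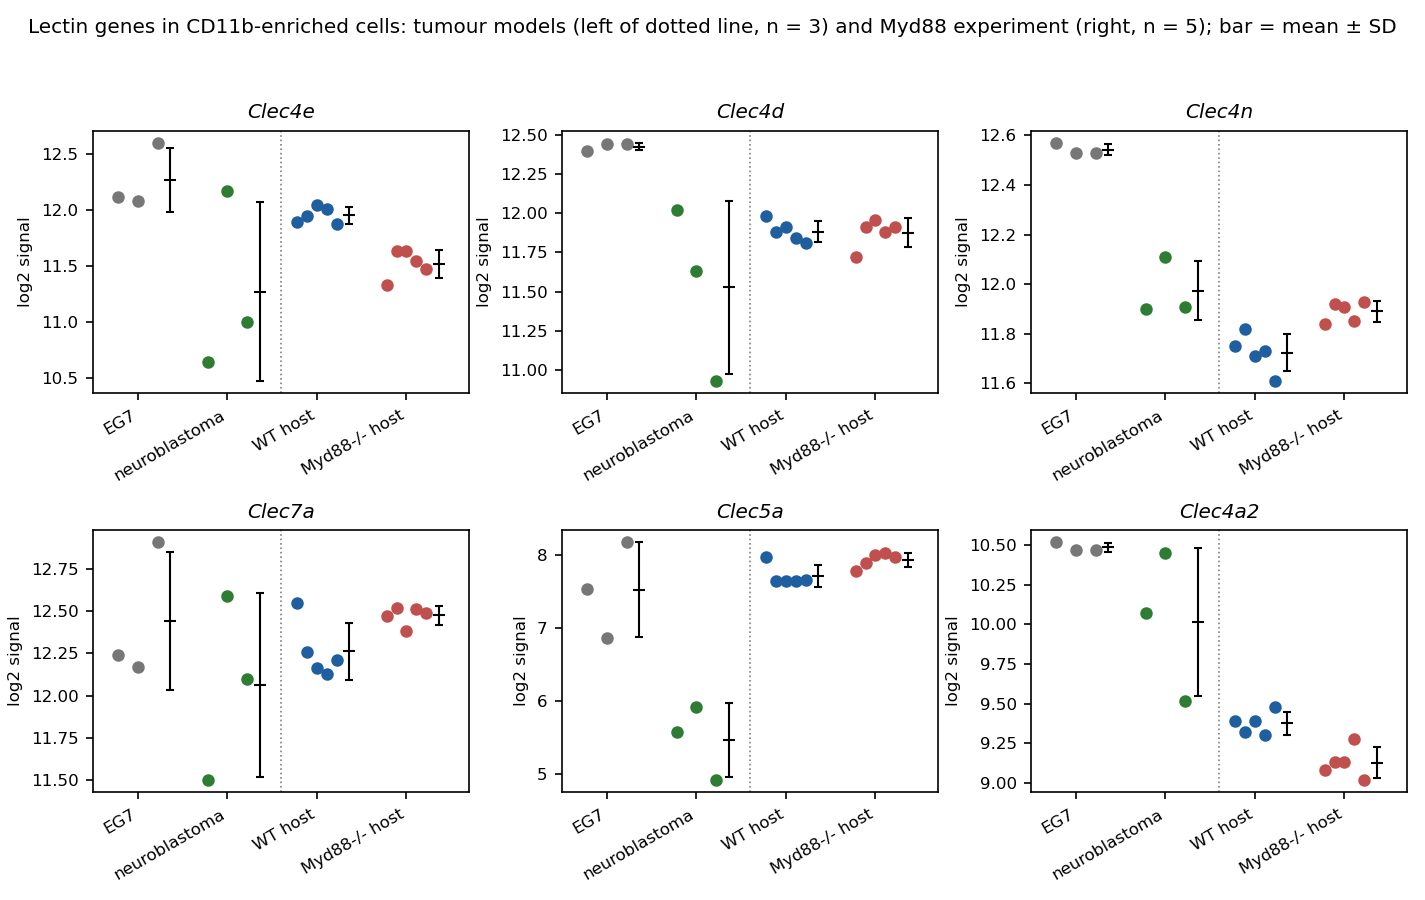
Log2 signal of each lectin gene (vertical axis) in each array of CD11b-enriched cells, with EG7 (grey) and neuroblastoma (green) arrays left of the dotted line and WT (blue) and Myd88-/- (red) hosts right of it. Bars give the mean ± SD (n = 3 and n = 5). Clec4e arrays of Myd88-/- hosts lie at 11.33 to 11.63, below all WT arrays at 11.87 to 12.04.

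In the tumour models, all 6 lectin genes had a lower mean in neuroblastoma than in EG7 tumours, and 2 of the 6 fell, Clec5a and Clec4n, where 5.22% of the 12577 genes tested were called lower. Clec5a, the receptor that signals through Tyrobp, read 7.54, 6.87 and 8.18 in the EG7 arrays and 5.58, 5.92 and 4.92 in the neuroblastoma arrays. The groups do not overlap. The log2 difference was -2.06 ± 0.39 (4.16-fold lower, adjusted p = 0.0176). Clec4n, the dectin-2 gene, read 12.57, 12.53 and 12.53 in EG7 and 11.90, 12.11 and 11.91 in neuroblastoma, again without overlap, and fell by 0.57 ± 0.14 on the log2 scale (adjusted p = 0.0393). A second probe set of Clec4n gave -0.72 ± 0.14 (adjusted p = 0.0185).

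The other 4 genes were not called. Clec4d, the partner of Mincle, read 12.40, 12.44 and 12.44 in EG7 and spread over 12.02, 11.63 and 10.93 in neuroblastoma, a difference of -0.90 ± 0.28 (adjusted p = 0.0792). Clec4e read 12.12, 12.08 and 12.60 in EG7 and 10.64, 12.17 and 11 in neuroblastoma. The second neuroblastoma array alone lies among the EG7 values, and the difference of -1.0 ± 0.40 (adjusted p = 0.152) became -1.45 (adjusted p = 0.0105) without it. Without the first neuroblastoma array it was -0.68 (adjusted p = 0.336). Clec7a, with -0.38 ± 0.33 (adjusted p = 0.498), also had its highest neuroblastoma value, 12.59, in that array. Clec4a2 differed by -0.47 ± 0.25 (adjusted p = 0.252), with 9.52 to 10.45 in neuroblastoma and 10.47 to 10.52 in EG7. A second Clec4a2 probe set, of equal mean over the chip, gave -0.10 ± 0.22 (adjusted p = 0.809). The third gave -0.58 ± 0.26 (adjusted p = 0.201), and the groups overlap in both. By the probe sets used, counting called and uncalled genes, 4 of the 6 had non-overlapping groups with neuroblastoma below EG7. This held for 17% of all genes tested. The median lectin difference was -0.73, beside -0.01 over all genes tested.

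With 3 arrays a group these 2 calls were not firm. Clec4n lost its call without any 1 array other than the second neuroblastoma array (adjusted p of 0.0966 to 0.157), and Clec5a lost its call without the first or the third neuroblastoma array or the first or the third EG7 array (0.0506 to 0.0775), while its difference stayed between -2.11 and -1.73 in those 4 fits. Clec4d was called, at -1.15, without the first neuroblastoma array, and was at -0.60 without the third (adjusted p = 0.108). Cells of the tumours themselves differed between the groups. Of 9 tested markers of neuroblastoma and neurons 8 were higher in neuroblastoma arrays, with a mean level of 7.94 to 8.81 against 3.66 to 3.78, and of 9 tested T lymphocyte and EG7 markers 7 were higher in EG7 arrays, at 8.13 to 8.40 against 4.44 to 5.43. Of the 8 pan-macrophage markers 1 was called, Adgre1, at -0.92 ± 0.17 (adjusted p = 0.0162). Of 12 mature macrophage markers 2 were higher in neuroblastoma, Timd4 and Cx3cr1, and 1 was lower, Gpnmb. Their list mean was 11.085 to 11.233 in neuroblastoma arrays and 10.616 to 10.752 in EG7 arrays. None of 8 tested monocyte markers was called in limma, and 2 had an unadjusted p under 0.05. The monocyte list mean was 9.02 to 10.69 in neuroblastoma arrays and 10.65 to 10.88 in EG7 arrays. The part of the cell mixture in the lectin differences was not tested.

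Among the partners of these receptors, 2 of 16 tested genes of receptor coupling and proximal signalling were higher in neuroblastoma. They were the kinase Fyn (1.02 ± 0.20, adjusted p = 0.0198) and the ubiquitin ligase Cblb (1.13 ± 0.23, adjusted p = 0.023). The kinase Src was the 1 gene called lower (-1.1 ± 0.27, adjusted p = 0.0416). The share of this list called in either direction, 18.8%, is near the 14.7% of all genes tested. None of 13 tested genes of the Card9 module and NF-kB, and none of 16 tested cytokine and enzyme targets, was called in limma, and 3 and 0 of them had an unadjusted p under 0.05. Of 15 other myeloid lectins tested, Clec1b (3.15 ± 0.56, adjusted p = 0.0142) and Clec14a (1.79 ± 0.45, adjusted p = 0.0424), genes known from platelets and endothelium, were higher. Klrb1b (-3.29 ± 0.23, adjusted p = 0.000621) and Ly75 (-2.26 ± 0.30, adjusted p = 0.00515), genes known from natural killer cells and from dendritic cells and thymus, were lower.

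In Myd88-/- hosts, Mincle was the lectin that fell. Clec4e read 11.89, 11.95, 12.04, 12.01 and 11.87 in WT hosts and 11.33, 11.63, 11.63, 11.54 and 11.47 in Myd88-/- hosts. All 5 Myd88-/- arrays lie below all 5 WT arrays. Clec4e fell by 0.43 ± 0.08 on the log2 scale (1.35-fold, adjusted p = 0.018), which makes 1 of 6 lectin genes called lower, where 1.18% of the 11915 genes tested were. The call was lost, at an almost equal difference, without the second WT array (-0.43, adjusted p = 0.0589), the third WT array (-0.41, adjusted p = 0.0698) or the fifth Myd88-/- array (-0.42, adjusted p = 0.0592).

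The second Clec4e probe set showed a larger difference. It read 9.71, 9.91, 9.92, 9.86 and 9.71 in WT hosts and 8.65, 9.20, 9.08, 8.73 and 8.84 in Myd88-/- hosts, a difference of -0.92 ± 0.11 (adjusted p = 0.000876 over 18978 probe sets). The size of the Mincle difference depended on the probe set, and both sets gave the same direction. This reading of single probe sets was chosen after the data were seen.

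Clec4a2, the inhibitory DCIR gene, also read lower, and its call depended on the probe set. The set used read 9.39, 9.32, 9.39, 9.30 and 9.48 in WT hosts and 9.08, 9.13, 9.13, 9.28 and 9.02 in Myd88-/- hosts. The groups do not overlap, and the difference of -0.25 ± 0.08 was not called (adjusted p = 0.157). A second set has exactly the same mean over the chip, 9.63, so that identifier order alone decided between them. That set read 9.42 to 9.54 in WT hosts and 8.55 to 9.11 in Myd88-/- hosts and was called at -0.52 ± 0.10 (adjusted p = 0.0272). The third set was called at -0.61 ± 0.13 (adjusted p = 0.046).

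**Figure D2:**
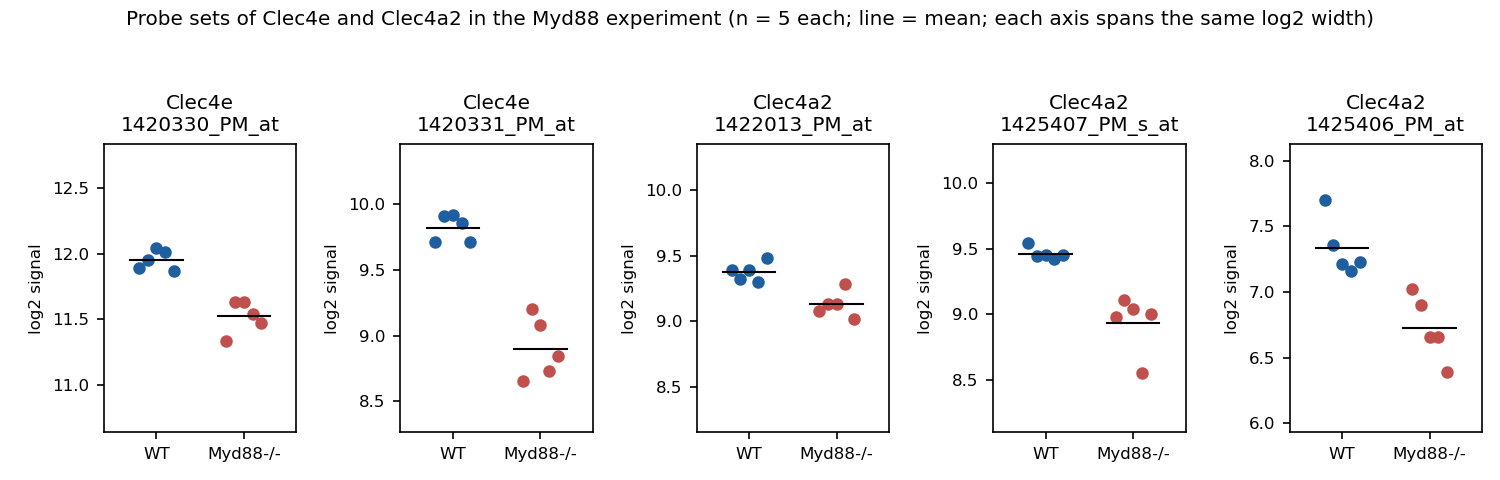
Log2 signal of the 2 Clec4e and 3 Clec4a2 probe sets in 5 WT (blue) and 5 Myd88-/- (red) arrays, 1 panel for each probe set, lines marking means. Every vertical axis spans the same log2 width, and in each panel all Myd88-/- arrays lie below all WT arrays, with differences from -0.25 to -0.92.

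None of the other activating receptors was called. Clec4d read 11.98, 11.88, 11.91, 11.84 and 11.81 in WT hosts and 11.72, 11.91, 11.96, 11.88 and 11.91 in Myd88-/- hosts, a difference of -0.01 ± 0.07 with a 95% interval of -0.17 to 0.15. Clec4n read 11.61 to 11.82 in WT hosts and 11.84 to 11.93 in Myd88-/- hosts, higher without overlap by 0.17 ± 0.07 but not called (adjusted p = 0.353). Clec7a differed by 0.21 ± 0.09 (adjusted p = 0.35) and Clec5a by 0.22 ± 0.09 (adjusted p = 0.33), both with overlapping groups. By overlap alone, 2 of 6 lectin genes had all Myd88-/- arrays below WT and 1 had all above, against 1.68% and 1.35% of all genes tested. The 6 genes had no common direction, with a median difference of 0.08 beside 0.01 over all genes tested.

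Genes listed as downstream of Syk and Card9, most of which other inflammatory receptors also drive, fell in numbers. Which receptors lay behind this was not tested. Of 17 tested cytokine and enzyme targets 9 were lower in Myd88-/- hosts and none was higher, where 1.18% of the 11915 genes tested were called lower. Among the 9 were the cytokines Il23a (-4.27 ± 0.15, adjusted p = 5.13e-09), Tnf (-1.38 ± 0.08, adjusted p = 3.47e-06) and Csf3 (-2.88 ± 0.34, adjusted p = 0.000889), with the inflammasome sensor Nlrp3 at -1.02 ± 0.13 (adjusted p = 0.00147). By contrast none of the 16 tested receptor partners and proximal kinases was called in limma, and 0 had an unadjusted p under 0.05. Of 13 genes of the Card9 module and NF-kB only the subunit Nfkb2 was called, at -0.44 ± 0.10 (adjusted p = 0.0429). Among 16 other myeloid lectins Clec4b1, a relative of DCIR, was the single call, at -0.97 ± 0.16 (adjusted p = 0.00917). Monocyte markers moved too. Of 8 tested, 4 were lower, Ly6c1, Ccr2, Plac8 and Hp, and the list mean was 9.35 to 9.53 in Myd88-/- arrays against 9.70 to 9.92 in WT arrays. Their part in the lectin differences was not tested.

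**Figure D3:**
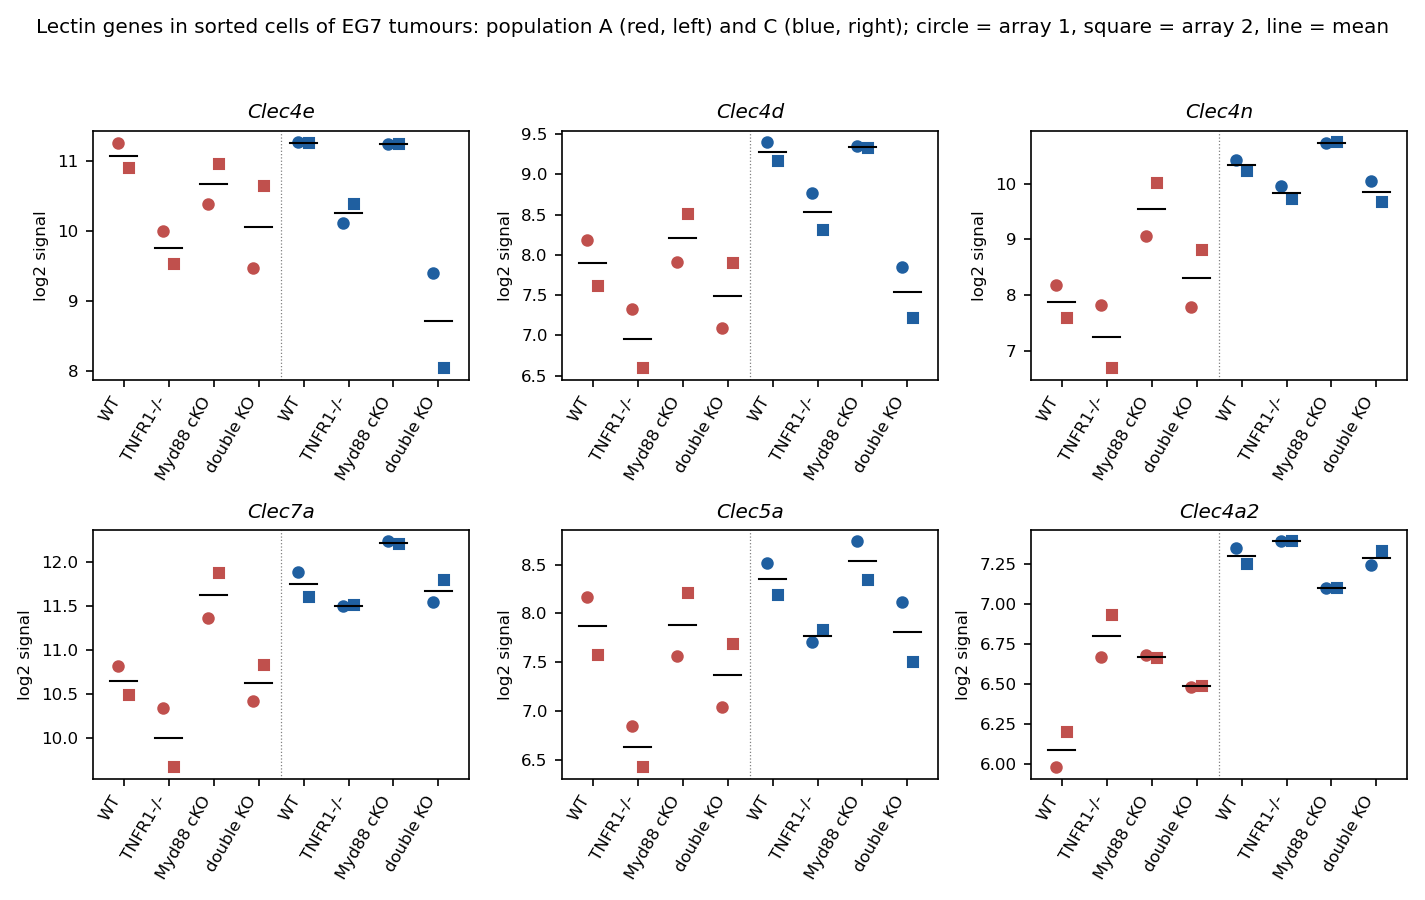
Log2 signal of each lectin gene in the 16 sorted arrays, with population A in red left of the dotted line and population C in blue right of it, by host genotype. Circles are array 1, squares array 2 and lines the mean of 2. Clec4e in C drops from 11.26 to 11.27 in WT hosts to 8.03 and 9.40 in double knockout hosts, while all 8 A arrays of Clec4a2 lie below all 8 C arrays.

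In sorted cells, 5 of the 6 lectin genes were lower in the Ly6C+ population A than in the MHCII+ population C over the 4 genotypes, where 21.3% of the 16524 genes tested were called lower. Clec4n differed most, by -1.95 ± 0.20 (3.85-fold lower, adjusted p = 7.39e-06). Its A arrays ranged from 6.68 to 10.01 and its C arrays from 9.66 to 10.74. In WT hosts it read 8.18 and 7.58 in A against 10.42 and 10.23 in C. Clec7a, the beta-glucan receptor, differed by -1.06 ± 0.12 (adjusted p = 1.5e-05) and Clec4d by -1.04 ± 0.16 (adjusted p = 0.000257). Clec5a differed by -0.68 ± 0.15 (adjusted p = 0.00289).

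The inhibitory Clec4a2 differed by -0.76 ± 0.07 (adjusted p = 3.23e-06) and was the only lectin gene for which every A array (5.98 to 6.93) lay below every C array (7.10 to 7.39), which 4.86% of all genes tested did in this direction. Clec4e had nearly equal means in A and C, with a difference of 0.02 ± 0.20 and a 95% interval of -0.40 to 0.45 (adjusted p = 0.939). In WT hosts it read 11.26 and 10.90 in A and 11.27 and 11.26 in C. Each of the 5 calls was kept without any 1 array.

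Within genotypes, 4 of the 6 were lower in A in WT hosts, 5 in TNFR1-/- hosts, none in Tie2-Cre Myd88 hosts and 3 in double knockout hosts, against 9.92%, 10.1%, 0.938% and 3.72% of genes called lower. In Tie2-Cre Myd88 hosts all 6 differences were still negative, from -1.20 to -0.43. There 5 had an unadjusted p under 0.05 in limma, as did 2720 of the 16524 genes tested. In WT hosts 2 were called without the first C array. In TNFR1-/- hosts 2 were called without the first C array, and 3 without the second C array or the second A array. In double knockout hosts none was called without the second C array, and 1 without the first C or first A array of that genotype. Clec4e in double knockout hosts read 9.47 and 10.64 in A against 9.40 and 8.03 in C, a difference of 1.34 ± 0.40 (adjusted p = 0.0704). It was called without the first double knockout array of C (2.02, adjusted p = 0.0189) or of A (1.93, adjusted p = 0.032), and the difference was only 0.66 without the second of C (adjusted p = 0.512) and 0.76 without the second of A (adjusted p = 0.402).

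Macrophage markers and pathway genes also differed between A and C, where 32.3% of the 16524 genes tested were called in either direction. The mature macrophage markers had a mean level of 6.43 to 9.07 in A arrays and 9.13 to 9.76 in C arrays, and 6 of 8 pan-macrophage markers were lower in A. Of 16 receptor partners and proximal kinases 6 were lower, among them the kinase Src (-0.70 ± 0.09, adjusted p = 4.41e-05), and 1 was higher, Plcg2 (0.48 ± 0.11, adjusted p = 0.00514). Of 14 genes of the Card9 module and NF-kB 7 were lower, with Malt1 at -1.15 ± 0.16 (adjusted p = 8.78e-05). Of 21 other myeloid lectins 9 were lower, led by Mgl2 (-2.65 ± 0.11, adjusted p = 4.22e-09) and the mannose receptor Mrc1 (-2.53 ± 0.19, adjusted p = 7.78e-07). Of 7 tested factors placed upstream of the lectins, Cebpa (-1.78 ± 0.16, adjusted p = 2.23e-06) and Irf8 (-0.90 ± 0.16, adjusted p = 0.000745) were lower and Cebpb was higher (0.36 ± 0.13, adjusted p = 0.0483).

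Mincle and its partner MCL fell with loss of TNFR1. In population C, with 4 TNFR1-deficient arrays against 4 TNFR1-intact arrays over both Myd88 states, 2 of 6 lectin genes fell, where 0.617% of genes tested were called lower. Clec4e read 11.27, 11.26, 11.24 and 11.24 in the TNFR1-intact arrays (mean 11.25 ± 0.01, SD, n = 4). It read 10.11 and 10.39 in TNFR1-/- hosts and 9.40 and 8.03 in double knockout hosts. The intact arrays are tight and the deficient arrays all lie below them. The log2 difference was -1.77 ± 0.28 (3.41-fold lower, adjusted p = 0.00545, 95% interval -2.37 to -1.17), and the call was kept without any 1 array.

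Clec4d read 9.40, 9.17, 9.36 and 9.33 in the intact C arrays, 8.77 and 8.31 in TNFR1-/- hosts and 7.85 and 7.22 in double knockout hosts. Its groups do not overlap, and it fell by 1.28 ± 0.23 on the log2 scale (2.42-fold, adjusted p = 0.014). The Clec4d call was lost, at differences of -1.33 to -1.12, without the first or second WT array, the first or second Tie2-Cre Myd88 array, the second TNFR1-/- array or the second double knockout array of C (adjusted p of 0.0507 to 0.0971). Clec4n (-0.68 ± 0.28, adjusted p = 0.53) and Clec5a (-0.66 ± 0.21, adjusted p = 0.268) also had non-overlapping groups in C, so that 4 of the 6 genes did, against 3.37% of all genes in this direction. They were not called. With C fitted by itself, Clec4n (adjusted p = 0.00539) and Clec5a (adjusted p = 0.0335) were called as well. Clec7a differed by -0.40 ± 0.17 (adjusted p = 0.57) and Clec4a2 by 0.14 ± 0.10 (adjusted p = 0.934).

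In population A, none of the 6 was called over both Myd88 states, where 0.139% of genes were called lower and 0.0424% higher. All 6 had an unadjusted p under 0.05 in limma, as did 2287 of the 16524 genes tested. The 5 activating receptors had lower means, with differences from -0.97 ± 0.28 for Clec4e (adjusted p = 0.162) to -0.82 ± 0.17 for Clec7a (adjusted p = 0.0691), and Clec4a2 had a higher mean by 0.26 ± 0.10 (adjusted p = 0.253). Clec4e read 11.26, 10.90, 10.38 and 10.96 in intact A arrays and 10, 9.52, 9.47 and 10.64 in deficient ones. The last value, the second double knockout array, makes the groups overlap, and without that array the 5 activating genes were called at adjusted p of 0.0217 to 0.0372. Without the second WT array, Clec7a, Clec5a and Clec4d were called (adjusted p of 0.0215 to 0.0471). Without the first TNFR1-/- array, Clec7a was (adjusted p = 0.0207). The difference of the TNFR1 effect between A and C was not called for any of the 6, where 0.103% of genes were called in either direction, and none had an unadjusted p under 0.05 in limma. The nearest was Clec4e, at 0.80 ± 0.40 (unadjusted p = 0.0636, adjusted p = 0.79).

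Over both populations, with 8 arrays against 8, 4 of the 6 lectin genes fell, where 1.27% of genes were called lower. If A and C arrays share animals, each side holds fewer than 8 independent samples and the SE is uncertain. They were Clec4e (-1.37 ± 0.20, adjusted p = 0.00315), Clec4d (-1.05 ± 0.16, adjusted p = 0.00456), Clec5a (-0.77 ± 0.15, adjusted p = 0.015) and Clec7a (-0.61 ± 0.12, adjusted p = 0.0147). Clec4n, at -0.81 ± 0.20, had an adjusted p of 0.0511, and was called without the second WT, first TNFR1-/-, first Tie2-Cre Myd88 or second double knockout array of A (0.0137 to 0.0311). Clec5a lost its call without the first Tie2-Cre Myd88 array of C (adjusted p = 0.0528). Clec4a2, the inhibitory receptor, was the 1 lectin gene with a difference above 0, at 0.20 ± 0.07 (adjusted p = 0.2). The median lectin difference was -0.79, beside -0.01 over all genes tested. Macrophage markers were lower in the same arrays. Of 12 mature macrophage markers 5 were called lower over both populations, among them Ms4a7 (-1.08 ± 0.15, adjusted p = 0.00206) and Gpnmb (-1.35 ± 0.19, adjusted p = 0.00276), and of 8 pan-macrophage markers 3 were, the receptors Mertk and Csf1r and the lysozyme gene Lyz2. In A alone 3 of 12 mature macrophage markers were called lower. None of 8 pan-macrophage and none of 12 neutrophil markers was called in A, of which 6 and 10 had an unadjusted p under 0.05 in limma. The mean of the pan-macrophage list was 9.29 to 9.59 in TNFR1-/- and 9.53 to 10.04 in WT A arrays, and 9.56 to 9.85 in double knockout and 9.95 to 10.37 in Tie2-Cre Myd88 A arrays. The part of these markers in the lectin differences was not tested.

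The single TNFR1 knockout gave fewer calls than the pooled comparison. Against WT, with 2 arrays each, none of the 6 was called in C, where 0.0424% of genes were called lower. In C 2 of the 6 had an unadjusted p under 0.05 in limma, as did 781 of the 16524 genes tested. Clec4e differed there by -1.01 ± 0.40 (adjusted p = 0.923). In A, Clec4a2 rose by 0.71 ± 0.14 (adjusted p = 0.0388), from 5.98 and 6.20 to 6.67 and 6.93, and was the 1 lectin gene called, where 0.315% of genes were called higher. This call was lost without the first WT or second TNFR1-/- array of A, either Tie2-Cre Myd88 array of A or any 1 of the 8 C arrays (adjusted p of 0.0504 to 0.452). In A, Clec5a differed by -1.24 ± 0.30 (adjusted p = 0.0621) and Clec4e by -1.32 ± 0.40 (adjusted p = 0.102). Clec5a was called without the second WT array or either double knockout array of A (adjusted p of 0.0166 to 0.0311).

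The chromosome 6 neighbours of Tnfrsf1a were counted beside these calls. Among 205 other tested genes within 10 Mb of it, 8 were called with TNFR1 loss in C, 6 higher and 2 lower, which is 3.9% against 1.04% of genes elsewhere. Over both populations 10 of the 205 were called, 6 higher and 4 lower, which is 4.88% against 1.92% elsewhere. In A none of the 205 was called by limma, against 0.184% elsewhere, and 28 had an unadjusted p under 0.05. In the Myd88 experiment, where Tnfrsf1a was not targeted, 3.27% of 153 such genes were called, against 1.41% elsewhere. The part of linkage to the targeted locus in the lectin differences was not tested.

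Partner genes were mostly uncalled with TNFR1 loss. In C the single call among 16 receptor partners and proximal kinases was Src, at -1.32 ± 0.12 (adjusted p = 8.94e-05), and none of 14 genes of the Card9 module and NF-kB was called, of which 3 had an unadjusted p under 0.05 in limma. Among 16 cytokine and enzyme targets Nos2 fell (-1.14 ± 0.24, adjusted p = 0.0364) and Il6 rose (0.89 ± 0.18, adjusted p = 0.0258). Tlr2, the lipopeptide receptor, fell by 1.01 ± 0.21 on the log2 scale (adjusted p = 0.0279). Among 21 other myeloid lectins the galactose-type lectins Mgl2 (2.68 ± 0.16, adjusted p = 1.94e-06) and Clec10a (0.86 ± 0.16, adjusted p = 0.0156) rose. Of 9 dendritic cell markers 3 rose, Ccr7, Irf4 and Batf3, with a list mean of 7.03 to 7.30 in TNFR1-deficient C arrays against 6.57 to 6.76 in intact ones. None of 12 mature macrophage markers and none of 8 pan-macrophage markers was called in C, where 4 and 3 had an unadjusted p under 0.05 in limma. The part of the cell mixture in the lectin differences was not tested.

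**Figure D4:**
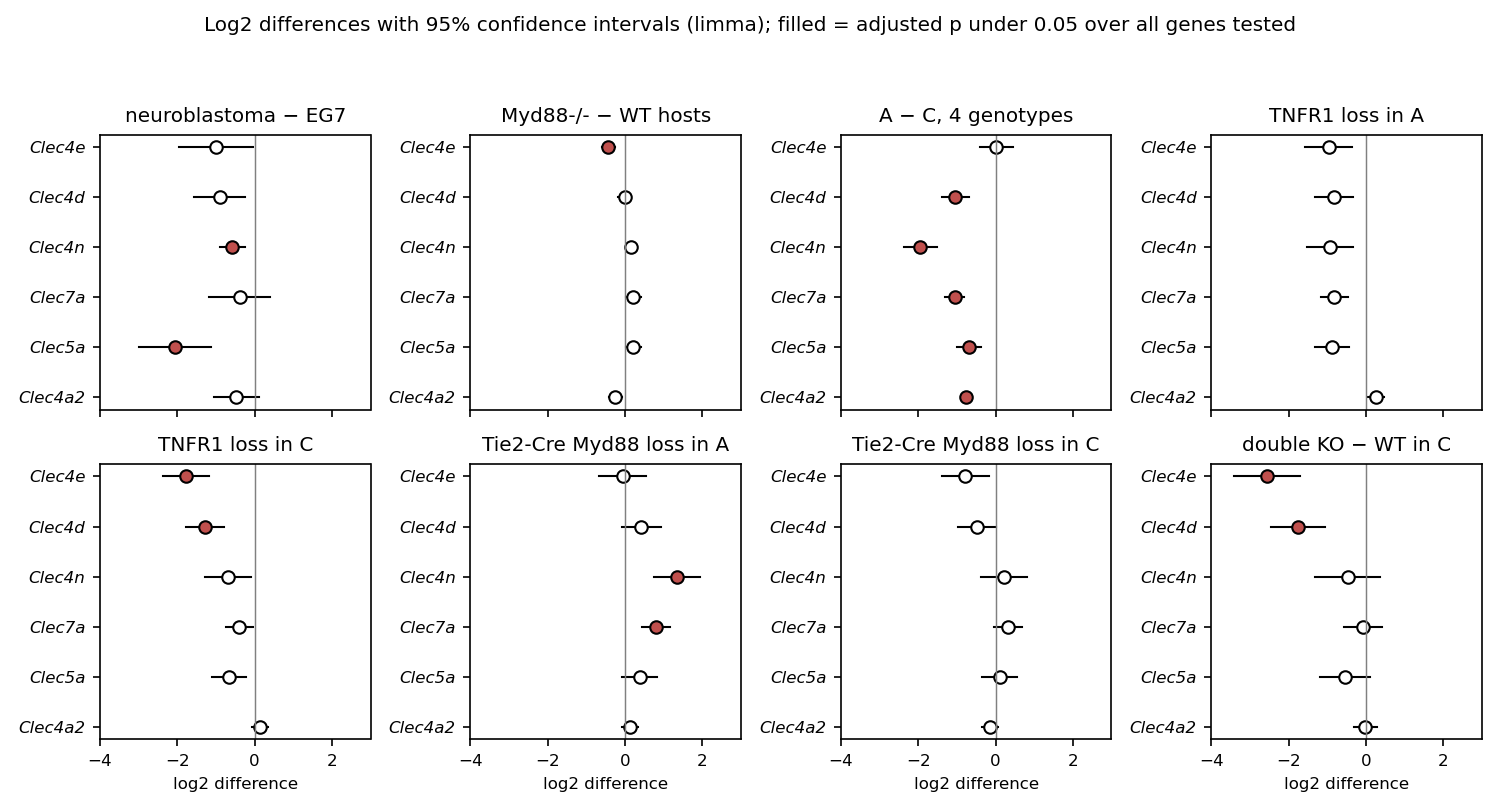
Log2 differences (horizontal axis) of the 6 lectin genes in 8 comparisons, with 95% confidence intervals from limma and filled points where the adjusted p was under 0.05. Clec4e and Clec4d are the filled points for TNFR1 loss and double loss in C, Clec4n and Clec7a for Tie2-Cre Myd88 loss in A, and in the A against C panel only Clec4e is open.

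Tie2-Cre deletion of Myd88 went with higher dectin genes in population A. Over both TNFR1 states, 2 of the 6 lectin genes rose in A, where 4.19% of genes were called higher. Clec4n read 8.18 and 7.58 in WT, 7.82 and 6.68 in TNFR1-/-, 9.06 and 10.01 in Tie2-Cre Myd88 and 7.78 and 8.81 in double knockout hosts. Myd88-deficient and Myd88-intact arrays overlap through the first double knockout array. The log2 difference was 1.35 ± 0.28 (2.55-fold higher, adjusted p = 0.0157). Clec7a read 10.81 and 10.48 in WT, 10.33 and 9.66 in TNFR1-/-, 11.36 and 11.87 in Tie2-Cre Myd88 and 10.42 and 10.82 in double knockout hosts, a difference of 0.80 ± 0.17 (adjusted p = 0.0163). Both calls were lost without the second Tie2-Cre Myd88 array of A (adjusted p of 0.0872 and 0.0915) and with A fitted by itself (0.142 and 0.137).

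Clec4e differed there by -0.06 ± 0.28 (adjusted p = 0.933), Clec4d by 0.42 ± 0.23, Clec5a by 0.38 ± 0.21 and Clec4a2 by 0.13 ± 0.10, none called. Against WT alone, 3 of the 6 rose in A, Clec4n (1.66 ± 0.39, adjusted p = 0.0396), Clec4a2 (0.58 ± 0.14, adjusted p = 0.0403) and Clec7a (0.97 ± 0.23, adjusted p = 0.0414), where 2.47% of genes were called higher. These calls sat close to the threshold and were lost in many fits with 1 array less. Clec4n lost its call without any 1 C array or the second WT or second Tie2-Cre Myd88 array of A (adjusted p of 0.0525 to 0.238). Clec7a lost it in the same fits and without the first Tie2-Cre Myd88 array of A (0.0514 to 0.241). Clec4a2 lost it without any 1 of the 6 C arrays of the knockout hosts, the first WT array of A or either Tie2-Cre Myd88 array of A (0.0598 to 0.157). With A fitted by itself none was called (adjusted p = 0.199 for each).

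In C none of the 6 was called with Myd88 loss, where 3 of 16524 genes (0.0182%) were called in either direction. Among the 771 genes with an unadjusted p under 0.05 in limma was 1 lectin gene, Clec4e. Its difference was -0.78 ± 0.28 (adjusted p = 0.908). It read 11.24 in both Tie2-Cre Myd88 arrays, beside 11.27 and 11.26 in WT, and 9.40 and 8.03 in double knockout arrays, beside 10.11 and 10.39 in TNFR1-/- arrays, so that the pooled value joins unlike pairs. Over both populations Clec7a (0.56 ± 0.12, adjusted p = 0.0244) and Clec4n (0.78 ± 0.20, adjusted p = 0.0479) were called, 2 of 6 where 2.44% of genes were called higher. Clec7a lost this call without the second WT, TNFR1-/- or double knockout array or either Tie2-Cre Myd88 array of C, or the second Tie2-Cre Myd88 array of A (adjusted p of 0.0572 to 0.0739). Clec4n lost it without any 1 C array or the second A array of any of the 4 genotypes (0.0673 to 0.131). In the test of the difference of the Myd88 effect between A and C by limma none of the 6 was called, nor was any of the 16524 genes (0%). An unadjusted p under 0.05 was found for 1532 genes, 2 of them lectin genes. These were Clec4n at 1.14 ± 0.39 and Clec4d at 0.90 ± 0.33 (adjusted p = 0.457 for both).

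Mature macrophage markers moved with the dectins in A. Of 12 tested, 9 were higher with Myd88 loss, among them Folr2 (1.86 ± 0.16, adjusted p = 0.00021) and C1qc (1.91 ± 0.24, adjusted p = 0.00103). The mean of the 12 was 6.96 to 7.29 in WT, 6.43 to 7.23 in TNFR1-/-, 8.64 to 9.07 in Tie2-Cre Myd88 and 7.65 to 7.76 in double knockout A arrays. Of 8 T lymphocyte and EG7 markers 4 were higher, with a list mean of 6.99 in the lower of the double knockout arrays and 5.69 to 6.48 in all other A arrays. The integrin Itgax was higher by 1.66 ± 0.19 (adjusted p = 0.000651) and the mannose receptor Mrc1 by 1.62 ± 0.27 (adjusted p = 0.00571). None of 16 receptor partners, 14 genes of the Card9 module or 7 upstream factors was called, and 1 of each list had an unadjusted p under 0.05 in limma. The part of these cell markers in the lectin differences was not tested.

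The lowest Mincle values of the sorted cells were those of C in double knockout hosts. Against WT, 2 of 6 lectin genes fell there, Clec4e by 2.55 ± 0.40 on the log2 scale (5.86-fold, adjusted p = 0.0116) and Clec4d by 1.75 ± 0.33 (3.36-fold, adjusted p = 0.0362), where 0.133% of genes were called lower. The WT values of Clec4e were 11.27 and 11.26 and the double knockout values 9.40 and 8.03, so the size rests on a pair that differs by more than 1 unit. Clec4e lost its call without either WT array or the second double knockout array of C (differences of -2.56 to -1.86, adjusted p of 0.13 to 0.191). Clec4d lost it without any 1 C array (adjusted p of 0.0531 to 0.53). Clec4n (-0.47 ± 0.39), Clec5a (-0.55 ± 0.30), Clec7a (-0.07 ± 0.23) and Clec4a2 (-0.01 ± 0.14) were not called.

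In A, none of the 6 was called between double knockout and WT, where 1.42% of genes were called lower and 4.33% higher. In limma 2 had an unadjusted p under 0.05, as did 4095 of the 16524 genes tested. These 2 were Clec4e at -1.02 ± 0.40 (adjusted p = 0.131) and Clec4a2 at 0.40 ± 0.14 (adjusted p = 0.1). Clec4e was called without the second double knockout array of A (-1.61, adjusted p = 0.0348), and its difference shrank to -0.44 without the first (adjusted p = 0.671). Departure of double loss from adding both single effects was tested only as the average over both populations. None of the 6 was called, where 0.0605% of genes were. Departures of opposite sign in A and C would cancel in this average. Mean Clec4e was 11.265 in WT and 11.24 in Tie2-Cre Myd88 C, but 10.25 in TNFR1-/- and 8.715 in double knockout C. In A the same means were 11.08, 10.67, 9.76 and 10.055. Departure within C or within A was not tested. In the averaged test Clec4a2 had the smallest unadjusted p in limma, 0.0118, at -0.40 ± 0.14 (adjusted p = 0.432). The comparisons with WT in the same population share their WT arrays and are not independent of each other.

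Across the 8 sorted groups, Clec4d, Clec4n, Clec7a and Clec5a had their highest mean in C of Tie2-Cre Myd88 hosts and their lowest in A of TNFR1-/- hosts. For Clec4n this span ran from 10.73 to 7.25 and for Clec7a from 12.21 to 9.995. Clec4e had its highest mean, 11.26, in C of WT hosts and its lowest, 8.71, in C of double knockout hosts, and Clec4a2 ran from 7.39 in C of TNFR1-/- hosts to 6.09 in A of WT hosts. Neighbours in these orders often lie within the spread of a pair. The largest SD of a pair was 0.97 for Clec4e, 0.81 for Clec4n, 0.57 for Clec4d, 0.47 for Clec7a, 0.46 for Clec5a and 0.18 for Clec4a2.

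Likeness of pattern was measured by Pearson correlation over the 16 sorted arrays, which share their genotypes and populations, and is given within each population as a description. The 3 genes most like Clec4e were Fpr2, Tlr2 and Ly6i. Fpr2, a formyl peptide receptor, correlated with Clec4e at r = 0.92 over the 8 A arrays, 0.95 over the 8 C arrays and 0.89 over the 10 arrays of the Myd88 experiment, and Tlr2 at 0.97, 0.97 and 0.78. Over the 10 arrays of the Myd88 experiment r was 0.12 to 0.60 for the 3 genes of Clec4d, 0.43 to 0.61 for those of Clec4n, 0.35 to 0.87 for those of Clec7a, -0.37 to 0.13 for those of Clec5a and -0.77 to 0.15 for those of Clec4a2. Clec4d was most like Aoah, Rnf149 and Fth1, with r of 0.86 to 0.97 in A and 0.90 to 0.98 in C. Clec4n was most like Anxa5, Myof and Ctss, and Clec7a most like Ctss, Lgals3bp and Anxa4. Ctss, the lysosomal protease cathepsin S, correlated with Clec7a at 0.98 in A and 0.85 in C, and with Clec4n at 0.96 and 0.92. Clec5a was most like Dram1, Rras and Pid1, with r of 0.95 to 0.99 in A and 0.90 to 0.96 in C. Clec4a2 was most like Ccdc90b, Atp5pb and Btbd1, at 0.83 to 0.87 in A but 0.16 to 0.29 in C, where its values span 7.10 to 7.39 only.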

How the data were processed

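Each of the 32 arrays, made from 100 ng of RNA, gave 1 log2 value per probe set. The submitters' processing notes name RMA and Affymetrix Expression Console 1.1 as what the authors used to make these log2 values before they were deposited. RMA sets arrays to 1 distribution, so a global change in RNA content is removed. Because array medians differed between the tumour models (3.84 to 3.93), the Myd88 hosts (2.95 to 3.03) and the sorted cells (5.31 to 5.50), each experiment had its own fit. Arrays give no counts, and their number limits the precision.

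Genes were named from probe sets with 1 symbol in each chip's platform annotation (28898 of 45141 and 23521 of 41345), and the probe set of highest mean stood for a gene. Genes above the 40th percentile of an array in at least 3, 5 or 2 arrays were tested. Two-sided tests used limma 3.58.1 (lmFit, then eBayes) under R 4.3.3. The sorted arrays were fitted as 8 groups of 2 with a common spread, and pooled effects average the groups with equal weight. The fits were tested on simulated data with 200 genes changed. A log2 difference of 1 was recovered for 19.5% of them in neuroblastoma against EG7 and 97% in Myd88-/- hosts. In sorted cells this was 97.5% for A against C, 93.5% for TNFR1 loss in C and 69.5% for double knockout against WT in C. For a difference of 2 in neuroblastoma against EG7 it was 80%. Intervals are at the 95% level.

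The members, gene lists and tests were chosen with earlier results of these data known. From each list up to 4 called genes of smallest adjusted p, or 2 of smallest p where none was called, could be named, with the 3 genes most like each lectin. Other settings tried were no filter, the median of a gene's probe sets, quantile normalization, eBayes with trend and robust options, a replicate block, populations fitted apart and each array left out. Each lectin probe set by itself was added after the data were seen.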

Additional observations from a re-analysis of the deposited data

Results flagged for a closer look

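Of the 12 groups of 5 arrays examined, 6 lectin genes in WT and Myd88-/- hosts, 1 held an array far from the others. Clec5a, the MDL-1 gene, read 7.98 in the first WT array, while the next highest of the other 4 WT arrays read 7.66. Chance sets about 1 in 20 such groups apart. The same array also had the highest WT value of Clec7a, 12.55. Groups of 2 or 3 arrays were not examined in this way.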

How the results depend on the processing

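The 36 called differences of single lectin genes were refitted under the other settings that kept all arrays. Of these refits, 192 over all 36 differences together, 172 kept the call, 20 lost it and none changed sign. Quantile normalization changed the number of lectin genes called from 2 to 1 for neuroblastoma against EG7, from 1 to 2 for TNFR1-/- against WT in A, from 0 to 2 for TNFR1 loss in A, from 3 to 1 for Tie2-Cre Myd88 against WT in A, and from 2 to 0 for Myd88 loss over both populations. That last count was 1 with no filter, with the median of probe sets, with trend and robust options and with the replicate block. Trend and robust options also gave 1 for Tie2-Cre Myd88 against WT in A. With populations fitted apart the counts were 0 for TNFR1-/- against WT in A, 0 for Tie2-Cre Myd88 against WT in A, 0 for Myd88 loss in A and 4 for TNFR1 loss in C. Under quantile normalization Clec5a in Tie2-Cre Myd88 against WT turned to -0.18 in A, and Clec4d turned to -0.04 in C, both uncalled. The cause of these changes was not tested.

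The replicate block gave 0 calls for neuroblastoma against EG7. The labels do not say whether same-numbered arrays share an animal or a batch, and the main fits leave the numbers out. Same-numbered arrays deviated together (r over 0.1) in 1 of 3 pairs of the tumour models and 3 of 5 of the Myd88 experiment. In sorted cells 8 of 28 pairs of groups did, each giving a single value because groups hold 2 arrays. In the first 2 experiments, 2 of 6 and 3 of 10 arrays correlated best with their own number. So few pairs cannot settle whether the numbers pair the arrays.

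With each array left out in turn, a lone array of a pair is assumed to vary like the other groups. The number of lectin genes called then ranged over 0 to 3 for neuroblastoma against EG7, 0 to 1 for Myd88-/- hosts, 2 to 4, 2 to 5 and 0 to 3 for A against C in WT, TNFR1-/- and double knockout hosts, 0 to 2 for TNFR1-/- against WT in A, 0 to 5 for TNFR1 loss in A, 1 to 2 in C and 3 to 5 over both, 0 to 3 for Tie2-Cre Myd88 against WT in A, 0 to 2 for Myd88 loss in A and over both, and 0 to 1 in A and 0 to 2 in C for double knockout against WT. Sign changes met uncalled differences only. Clec4d ranged over -0.029 to 0.031 in Myd88-/- hosts, -0.45 to 0.36 for A against C in double knockout hosts, -0.055 to 0.175 for Tie2-Cre Myd88 in C, -0.125 to 0.0775 for Myd88 loss over both and -0.805 to 0.005 for double knockout in A. Clec4e ranged over -0.15 to 0.195 for A against C and -0.35 to 0.235 for Myd88 loss in A. Clec4n ranged over -0.54 to 0.0325 for the difference of the TNFR1 effect between A and C and -0.10 to 0.93 for double knockout in A. Clec5a ranged over -0.31 to 0.34 in A and -0.015 to 0.385 in C for Tie2-Cre Myd88, and -0.04 to 0.27 for Myd88 loss in C. Clec7a ranged over -0.225 to 0.175 in A and -0.215 to 0.065 in C for double knockout, and Clec4a2 over -0.065 to 0.035 in C for double knockout and -0.0425 to 0.0225 for Myd88 loss over both. Pairs of arrays limit the precision of every difference within a genotype.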
